A study of Mus musculus with 4 samples.

Results

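Ependymal cells, the ciliated cells that line the brain ventricles, were picked out of the 2 brain libraries of this mouse series. They were chosen by raw counts of unique molecular identifiers (UMIs, each standing for 1 captured RNA molecule) of marker genes. A barcode was kept with at least 500 UMIs, at least 200 genes and at most 20% mitochondrially encoded UMIs. It was a member when Ccdc153, Tmem212, Dynlrb2 and Foxj1 together gave at least 4 UMIs, with at most 1 UMI of the microglial genes P2ry12 and Cx3cr1, at most 2 of the choroid plexus genes Folr1, Clic6 and Kcne2, and at most 1 of the endothelial gene Cldn5. This gave 144 members among 23857 kept brain barcodes and 51471 kept barcodes over all 4 libraries, 125 of them in the untreated brain library and 19 in the brain library from mice treated with NPs. The intestinal libraries held 0 members, and no kept intestinal barcode had more than 3 UMIs of the 4 genes.

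All mice were wild type (WT). The untreated brain library came from mice with no treatment and the NPs brain library from mice treated for 2 months. The labels do not spell out NPs and give neither the number of animals per library nor the part of the brain. They name BALB/c mice of 5 weeks and ICR mice of 6 months without saying which strain gave which tissue. With 1 library per group there is no replicate error, so no p-value is given, and a difference between the libraries cannot be told apart from a difference in dissection or dissociation. All intervals are 95% intervals that cover counting error only.

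Ependymal cells carry tufts of motile cilia whose beat moves cerebrospinal fluid. Each cilium holds a ring of doublet microtubules around a central pair, and it beats when dynein motors on the doublets slide them against each other under the control of radial spokes and a regulatory complex. The transcription factor Foxj1 and the RFX factors switch on the genes of this apparatus, and the cells arise from radial glia, with which they share many genes.

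The members carried the ependymal programme far beyond the 4 genes that chose them. The 4 rule genes summed to 4 UMIs in the lowest, 27 in the median and 141 in the highest untreated member, and to 4, 25 and 100 in the NPs members. Ccdc153, a coiled-coil protein of the cilium, stood at 1616 CPM (a gene's UMIs summed over the members of a library, per 1000000 of all their UMIs) in the untreated and 1526 in the NPs members. Tmem212, a membrane protein, stood at 1778 and 2077 CPM, the dynein light chain Dynlrb2 at 837 and 782, and Foxj1 at 688 and 521. Of 32 further ependymal markers outside the rule, 31 were raised, meaning at least 2-fold above both astrocyte-rule and all other kept barcodes in both libraries, against 20.9% of the 6491 measured genes (those with at least 30 UMIs over all members). Because members were selected on genes of the same cells, this is a description and nothing is read from the share. S100b, which astrocytes also make, was the exception. Together these 32 markers took 18612 CPM in the untreated and 18602 CPM in the NPs members, against 768 and 534 CPM in astrocyte-rule barcodes (chosen by Aldoc, Slc1a3, Gja1 and Aqp4) and 159 and 104 CPM in microglia-rule barcodes (chosen by P2ry12 and Cx3cr1). Every member had at least 4 UMIs of them, with a median of 117 in the untreated and 129 in the NPs library, as the plot of rule genes against other markers shows.

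**Figure D1:**
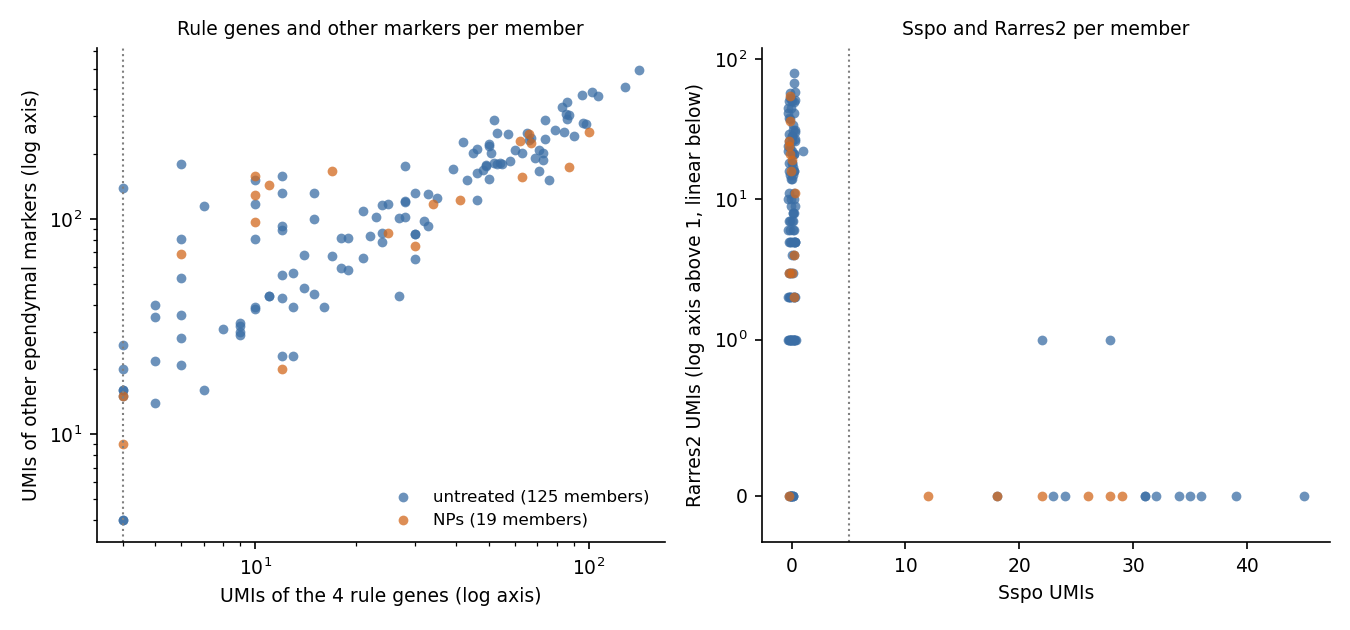
Left, UMIs of the 4 rule genes (x, log axis) against UMIs of 32 further ependymal markers (y, log axis), 1 point per member, with the rule's threshold of 4 dotted. Right, Sspo UMIs (x) against Rarres2 UMIs (y), with 5 Sspo UMIs dotted. The 125 untreated and 19 NPs members overlap on the left, and on the right 13 untreated and 6 NPs members lie apart at 12 or more Sspo UMIs with at most 1 Rarres2 UMI.

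Barcodes just outside the threshold, with 3 rule UMIs and the other limits met, numbered 5 in the untreated and 1 in the NPs library. The 12 untreated members with 4 or 5 rule UMIs had 8138 CPM of the 32 markers, while the 72 with at least 20 rule UMIs had 21156 CPM and the 5 untreated barcodes just outside had 4376 CPM. The 2 NPs members with 4 or 5 rule UMIs had 6324 CPM, the 10 with at least 20 had 21740 CPM and the single NPs barcode just outside had 18342 CPM.

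Markers of most other cells were present at low levels, those of neutrophils in the NPs members at a high one. Over all members, 16 astrocyte markers took 4791 CPM (untreated) and 2903 CPM (NPs), against 36193 and 37730 in astrocyte-rule barcodes. The 15 microglial markers took 758 and 1064 CPM, against 48743 and 50499 in microglia-rule barcodes. Of 12 markers of tanycytes, the ependymal relatives of the third ventricle floor, Adm and Frzb had no UMI in any member and the sum was 372 and 313 CPM. The choroid plexus transcript Ttr was found at a median of 11 UMIs per untreated member and 1 per NPs member. It stood at 1622 and 290 CPM, against 2032 and 159 CPM in microglia-rule barcodes, a cell type not known to make it. In 8 untreated members the markers of another class outnumbered the 32 ependymal markers, 5 of them with astrocyte, 1 with neuroblast, 1 with T cell and 1 with choroid plexus markers. Neutrophil markers summed to 22.7 CPM in the untreated and 13495 CPM in the NPs members. In 3 NPs members they outnumbered the ependymal markers, and these 3 held 303, 385 and 786 UMIs of S100a8 and S100a9, the neutrophil calprotectin subunits, while no untreated member had more than 1. Scrublet, a doublet caller, marked 3 untreated and 0 NPs members.

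The NPs library held a smaller share of ependymal cells. Members made up 1.07% of kept barcodes in the untreated library (125 of 11668, exact interval 0.893 to 1.28%). The NPs share was 0.156% (19 of 12189, 0.0939 to 0.243%), which is 6.87-fold lower (4.22 to 11.8). The members' depth was alike, with a median of 7588 UMIs and 3371 genes per untreated and 8097 UMIs and 3453 genes per NPs member. The share of mitochondrially encoded UMIs was not, with a median of 5.03% (0 to 19.4%) and 2.17% (0 to 8.16%). The medians were 3.78% and 3.14% in astrocyte-rule and 1.22% and 1.16% in microglia-rule barcodes. In choroid-rule barcodes (chosen by Folr1, Clic6 and Kcne2) they were 5.54% and 7.65%. Thinning every kept barcode to 2000 UMIs before the rule, which left out 1180 and 1030 shallower barcodes, gave 1.67% and 0.242%.

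The difference was shared by barcodes the rule had turned away and by the other epithelium of the ventricles. Kept barcodes with at least 4 UMIs of the rule genes and any other genes numbered 320 and 51, 2.74% and 0.418% (6.55-fold lower, 4.87 to 8.99). Choroid plexus cells, the secretory epithelium that makes cerebrospinal fluid, gave 122 and 15 barcodes with at least 15 UMIs of Folr1, Clic6 and Kcne2 (8.50-fold lower, 4.95 to 15.6), 71 and 7 of which are among the barcodes just counted by their rule genes. Astrocyte-rule barcodes made up 30.0% and 27.0%, and microglia-rule barcodes 49.2% and 57.4%. The part of dissection in these shares was not tested.

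**Figure D2:**
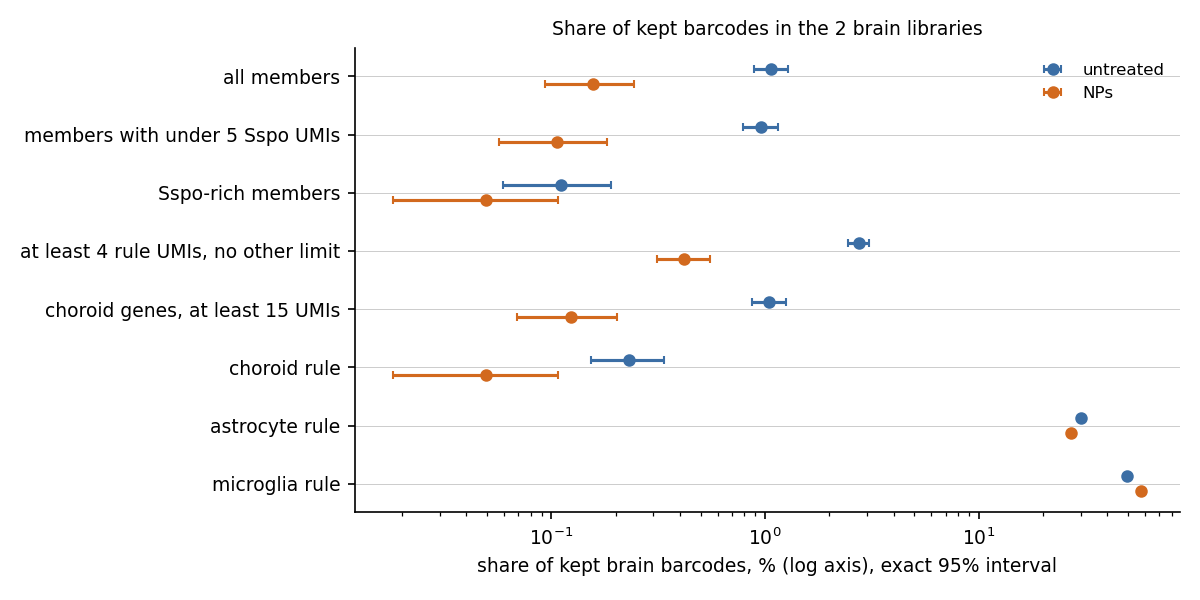
Share of kept brain barcodes (x, %, log axis) for the members, subsets of them and comparison classes (y), with exact 95% binomial intervals. The NPs share is lower for all members (0.156% against 1.07%) and for choroid genes of at least 15 UMIs (0.123% against 1.05%), while the astrocyte rule gives 27.0% against 30.0%.

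The motile cilium filled much of the members' RNA, and nearly every part of it was raised. Among dynein arms, the motors of the beat, 13 of 14 measured outer arm genes and 17 of 18 inner arm genes were raised, all but Dynlrb1 and Dnah7b. The outer arm heavy chain Dnah5 stood at 379 CPM in the untreated and 335 CPM in the NPs members against 0.953 and 0.337 CPM in astrocyte-rule barcodes, and the inner arm heavy chain Dnah12 at 676 and 439 CPM against 1.06 and 0.202. Of the genes that assemble dynein arms in the cytoplasm 12 of 13 were raised, among them Zmynd10 at 172 and 149 CPM. All 13 genes of the nexin-dynein regulatory complex and its ruler proteins, all 14 radial spoke genes and all 20 central pair genes that were measured were raised. The radial spoke head gene Rsph1 had a median of 8 UMIs per untreated member (0 to 34) and 13 per NPs member (0 to 27) and stood at 1377 and 1719 CPM. The central pair gene Hydin stood at 420 and 305 CPM and Spag17 at 379 and 290 CPM.

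Among the cilium lists the doublets themselves had the largest summed level. Genes of tubulin and the proteins inside the doublets took 13977 CPM (untreated) and 14686 CPM (NPs), with 31 of 33 measured genes raised, led by Tuba1a at 2464 and 2985 CPM and Tubb4b, the beta tubulin of cilia, at 1814 and 1920 CPM. Intraflagellar transport, which carries cargo along all cilia and not only motile ones, was less set apart, with 27 of 35 genes raised and a median of 3.52-fold over astrocyte-rule barcodes in the library with the smaller ratio. The same median was 253-fold for inner dynein arms and 158-fold for radial spokes. Genes with at least 300 UMIs were ranked by their ratio to all other barcodes, leaving out mt-, Rpl, Rps, Hba, Hbb, Rik and numbered Gm genes. The first 12 were the rule genes Ccdc153 and Tmem212, whose ratio the selection fixed, and Dnah12, Fam216b, Iqca, Ccdc180, Spag17, Sntn, Cdhr3, Dnah5, Hydin and Enkur. The smaller-of-both-libraries ratio ran from 51.7 for Dnah12 down through 40.3 for Enkur to 39.7 for Tmem212. The counts of raised genes above and below include the rule genes Dynlrb2, Ccdc153 and Foxj1, and stand beside 20.9% of all 6491 measured genes. Those other barcodes include the ciliated barcodes that the rule turned away, so these ratios are low estimates. The summed levels of the cilium lists were higher in the members than in astrocyte-rule and microglia-rule barcodes of both libraries, as the plot of summed list levels shows, while those of planar polarity and surface transport genes were lower than in astrocyte-rule barcodes.

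**Figure D3:**
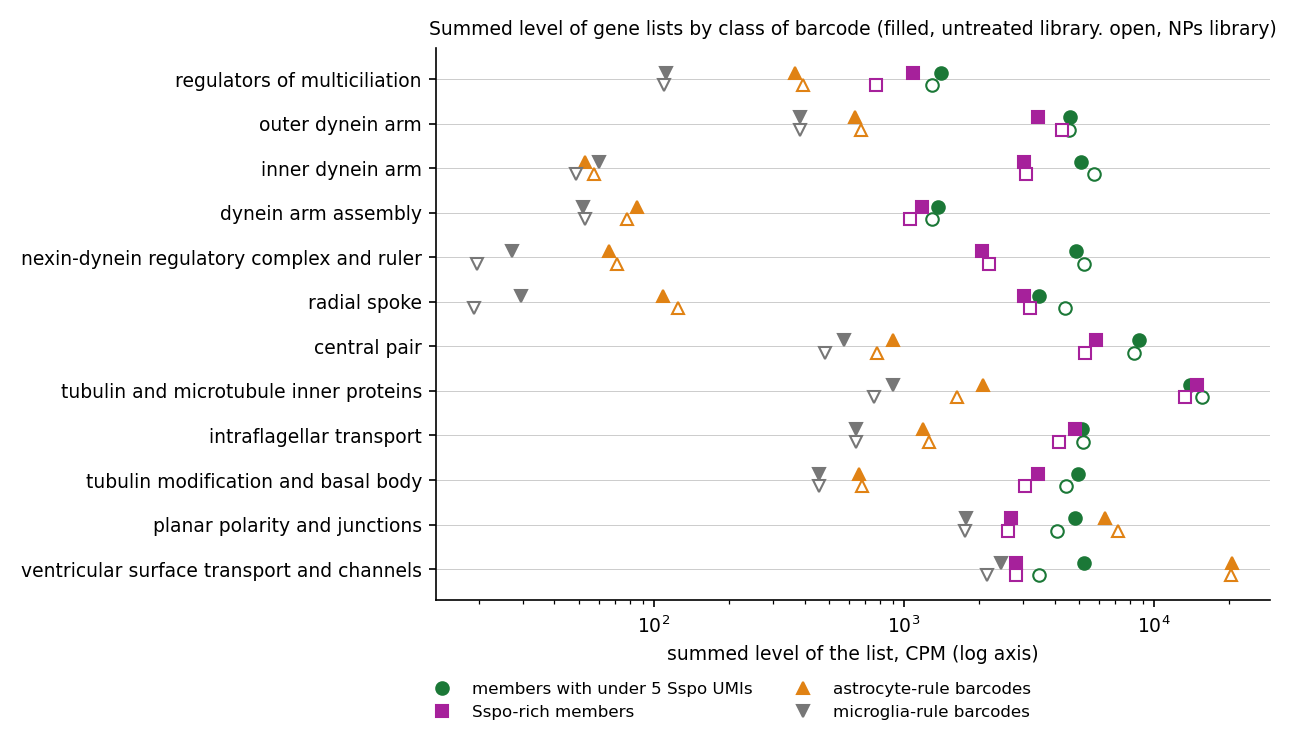
Summed CPM of each gene list (x, log axis) by list (y) in members with under 5 Sspo UMIs, Sspo-rich members, astrocyte-rule and microglia-rule barcodes, filled for the untreated and open for the NPs library. Inner dynein arm genes lie between 3012 and 5726 CPM in both kinds of member and at 53.1 and 57.7 CPM in astrocyte-rule barcodes, while surface transport genes are highest in astrocyte-rule barcodes.

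Among regulators of multiciliation 6 of 8 measured genes were raised. Foxj1 had a median of 5 UMIs per untreated member (0 to 29) and 4 per NPs member (0 to 6). Myb, which acts early in multiciliated cells, stood at 142 and 89.3 CPM against 0.953 and 0.405 CPM in astrocyte-rule barcodes. Rfx2 stood at 97.1 and 44.7 CPM against 9.13 and 17.5. Rfx3, at 142 and 127 CPM against 70.7 and 78.7, and Rfx4, at 106 and 104 CPM against 204 and 218, were not raised.

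RFX factors bind a palindromic motif, the X-box, so promoters of the most raised genes were read for it. Of 320 genes at least 8-fold above all other barcodes in both libraries with at least 100 UMIs, 246 had a promoter in the RefSeq table of build GRCm38.p6, each window running from 250 bases before to 50 after a gene's start. The X-box was searched on both strands as GTTGCC, any 2 bases and GGNAAC, its half-site as GTTGCCA and the forkhead motif as TGTTTAC; a half-site match can lie inside an X-box match. The half-site was found for 19.1% of these genes (47 of 246, 14.4 to 24.6%), against 5.02% of 27025 genes of the table and 6.12% of 5131 measured genes. The full X-box was found for 2.03% (5 of 246) against 0.355% and 0.643%, and the forkhead motif for 7.32% (18 of 246) against 4.05% and 3.37%. Stretches from 3 of the genes with an X-box before the start are printed here as examples. Each gives up to 50 bases on each side of the match, 5′ to 3′ on the gene's strand, with the X-box match in capitals.
Iqca: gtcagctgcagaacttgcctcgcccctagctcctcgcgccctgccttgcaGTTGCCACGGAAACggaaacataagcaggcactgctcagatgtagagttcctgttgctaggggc
Pifo: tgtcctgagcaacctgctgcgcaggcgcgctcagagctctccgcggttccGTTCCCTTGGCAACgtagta
Cfap298: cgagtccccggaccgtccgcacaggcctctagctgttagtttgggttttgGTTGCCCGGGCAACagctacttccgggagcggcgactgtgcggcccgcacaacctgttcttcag
The Iqca stretch lies at chr1:90153473-90153586 on the minus strand, the Pifo stretch at chr3:106001498-106001567 on the minus strand and the Cfap298 stretch at chr16:90934974-90935087 on the minus strand, all in the region before the start. The match begins 100 bases before the start in Iqca, 20 in Pifo, where it reads on the other strand, and 188 in Cfap298. Iqca, a protein of the nexin-dynein regulatory complex, had 452 CPM in the untreated and 357 CPM in the NPs members, and Cfap298, a dynein arm assembly gene, 272 and 342 CPM. A match is a run of letters and shows no binding.

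Away from the cilium the members were less distinct. Among ventricular surface transport and channel genes, the water channel Aqp4 stood at 641 and 320 CPM, below the 1217 and 1064 CPM of astrocyte-rule barcodes, which Aqp4 helped to choose. Of secreted proteins 10 of 21 measured genes were raised, against 20.9% of all measured genes. Rarres2, which encodes the chemoattractant chemerin, had a median of 6 UMIs per untreated member (0 to 79) and 3 per NPs member (0 to 54) and stood at 1874 and 1630 CPM against 92.7 and 80.3. Nnat stood at 2916 and 2397 CPM against 406 and 488. Hdc, the enzyme that makes histamine, stood at 352 and 610 CPM. Of radial glia and lineage genes 8 of 28 were raised, against the same 20.9% of all measured genes. They were led by Dbi, an acyl-CoA binding protein, at 11485 and 12639 CPM against 1291 and 1121 CPM, and the intermediate filament gene Vim at 1236 and 1362 CPM against 117 and 68.9. None of the 69 measured nuclear genes of oxidative phosphorylation was raised.

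The members fell into 2 kinds. Sspo, which encodes SCO-spondin, the protein that the subcommissural organ secretes to form Reissner's fibre, had 18 to 45 UMIs in 13 untreated members (median 31) and 12 to 29 UMIs in 6 NPs members (median 24). All other members had 0 or 1, so no member lay near the limit of 5 UMIs that was set after these values were seen. Sspo-rich members made up 10.4% of untreated members (5.65 to 17.1%) and 31.6% of NPs members (12.6 to 56.6%). They were 2.26-fold less frequent among kept barcodes of the NPs library (0.803 to 7.26), an interval that includes no difference. Over all kept Sspo-rich barcodes, members or not, 32 and 16, the share was 2.09-fold lower (1.11 to 4.08). The other members, 112 and 13, were 9.0-fold less frequent (5.05 to 17.4). The difference between the ratios of the 2 kinds of member was not tested.

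Both kinds held cilium genes outside the rule. Rsph1 stood at 1674 and 1657 CPM in the Sspo-rich members against 1338 and 1759 in the others, and the 32 further ependymal markers summed to 14013 and 14738 CPM against 19212 and 21035. Of the rule genes, through some of which every member had to enter, Foxj1 stood at 608 and 443 CPM and Dynlrb2 at 430 and 578. Dnah12 was lower, at 281 and 154 CPM against 728 and 619. Ccdc153 had 0 UMIs in all 13 untreated Sspo-rich members and 4 in the 6 NPs ones, against 1827 and 2438 CPM in the others. Rarres2 had 2 and 0 UMIs, the water channel Aqp4 1 and 1, and Sntn, a protein of the ciliary tip, 0 and 0. Apoe, the lipid carrier, stood at 627 and 347 CPM against 8744 and 9110. Mt1, Clu, S100b and Pltp were likewise lower in both libraries.

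Other genes were higher in the Sspo-rich members of both libraries. Rbp4, the retinol carrier of body fluids, stood at 3040 and 2370 CPM against 20.7 and 36.4. Car3, a carbonic anhydrase, stood at 2161 and 1522 CPM against 17.1 and 12.1. The secreted protein Spp2 stood at 2311 and 2543 CPM, and Spdef, a transcription factor of secretory epithelia, at 758 and 713 CPM, both with 0 UMIs in every other member. Genes of the unfolded protein response, which expands protein folding in the endoplasmic reticulum, summed to 12591 and 13043 CPM against 4676 and 4634. Its chaperone Hspa5 had a median of 21 UMIs per untreated Sspo-rich member (6 to 33) and 16 per NPs one (6 to 35), against 3 (0 to 19) and 5 (0 to 12) in the others. Herpud1 stood at 861 and 771 CPM against 41.5 and 72.8, and Manf at 1029 and 1098 against 161 and 182. Regional transcription factors differed too, with Lmx1b at 178 and 173 CPM against 6.10 and 0, Pax3 at 234 and 308 against 31.7 and 0, and Msx1 at 552 and 636 against 150 and 255. Of the forebrain list, Otx2 stood at 412 and 231 CPM against 63.4 and 206 and Pax6 at 346 and 231 against 36.6 and 48.5, while Six3 had 0 UMIs in the Sspo-rich members against 65.9 and 60.7 CPM. Mitochondrially encoded UMIs made up a median of 2.09% and 1.98% in Sspo-rich members and 5.50% and 3.45% in the others.

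Between the libraries, few well-measured genes differed 2-fold within the members. Of 2054 genes of sufficient level (at least 100 UMIs over all members, a mean of at least 50 CPM over both libraries and, in the library with the higher level, at least 0.5 of the level in other barcodes there), 49 (2.39%) exceeded their untreated level 2-fold or more in the NPs members, and 98 (4.77%) stood 2-fold or more below it. The 134343 UMIs of the NPs members, against 926870 of the untreated, set the precision. A gene thus met the minimum of 100 UMIs mainly through its untreated level. Genes lower in the NPs members passed more readily than genes equally higher, so the 2 counts cannot be set against each other. At a minimum of 200 UMIs 21 genes were higher and 15 lower of 843. The counts of 49 and 98 also moved with the rule. In an alternative added once the values were known, UMIs of the exclusion genes were limited to a share of 0.25 of the rule genes' UMIs instead of fixed numbers. It gave 213 and 35 members, and 24 genes were higher and 24 lower of 3960.

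Neutrophil genes led the higher side. Retnlg had 1 UMI in the untreated and 300 UMIs in the NPs members, S100a9 8 and 825, and S100a8 7 and 651. They came from the 3 members named above, and without these and the Sspo-rich members, which left 112 and 10, the NPs members held 16.3 CPM of Retnlg, 16.3 CPM of S100a9 and no UMI of S100a8. Genes of the Sspo-rich members followed. Spp2 was 3.69-fold higher (2.96 to 4.57), Wfdc2 3.59-fold, Zfhx4 3.18-fold, Spdef 3.15-fold, Tst 3.06-fold and Dpy19l3 2.63-fold. Without the Sspo-rich members and those with neutrophil genes, Spp2 and Spdef had 0 UMIs in both libraries, and Zfhx4, Tst and Dpy19l3 turned lower, with log2 ratios of -1.96, -0.58 and -1.99. Fos, an immediate early gene, was 4.55-fold higher (3.27 to 6.31), with 97 UMIs in 35 untreated and 64 UMIs in 10 NPs members, 36 of these in 1 Sspo-rich member, and its log2 ratio was -0.60 in the 112 and 10 members.

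The gene of the cell cycle inhibitor p21, Cdkn1a, was higher on both counts. It had 0 to 9 UMIs per untreated member (median 0, 124 in all) and 0 to 11 per NPs member (median 1, 54 in all), 134 CPM (111 to 160) and 402 CPM (302 to 524), a 3.00-fold difference (2.14 to 4.17). The ranges of the 2 libraries overlapped. Without the Sspo-rich members and those with neutrophil genes it was 2.76-fold higher (1.70 to 4.32), while with the exclusion genes limited by share its log2 ratio was 0.72 instead of 1.59. Over the settings tried, Cdkn1a had log2 ratios from 0.47 to 1.79. In microglia-rule barcodes it stood at 39.7 and 45.2 CPM. Emc7, of the membrane protein insertion complex, was 2.67-fold higher (1.71 to 4.09) and 2.12-fold in the 112 and 10 members (0.970 to 4.16). Its log2 ratio ranged from 0.26 to 2.51 over the settings tried.

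The ranking of single genes left out mt-, Rpl, Rps, Hba, Hbb, Rik and numbered Gm genes. Among the rest of the 2054 genes of sufficient level, C3, the central complement component, had the smallest ratio. It had 183 UMIs in 40 of the 125 untreated members, up to 17 in 1 member, and 2 UMIs in 2 of the 19 NPs members. This was 197 CPM (170 to 228) and 14.9 CPM (1.80 to 53.8), 13.3-fold lower (3.62 to 110). No Sspo-rich member of either library had a C3 UMI. In the 112 and 10 members left after the same removals it stood at 223 and 32.6 CPM, a ratio of 0.146 (0.0175 to 0.535). Among the barcodes with rule genes that had been turned away, which hold RNA of other cells as well, it stood at 50.4 (44.3 to 57.2) and 24.9 CPM (14.5 to 39.9), and its log2 ratio with exclusion by share was -2.08 instead of -3.73. A C3 UMI was seen in 32.0% of untreated and 10.5% of NPs members, against 1.10% and 0.501% of microglia-rule barcodes (median 5145 and 4850.5 UMIs) and 0.343% and 0.0304% of astrocyte-rule barcodes. In the untreated members C3 was thus far above its level in microglia-rule and astrocyte-rule barcodes. It was lower in the NPs library in the members, the barcodes turned away and both of these classes. The next smallest ratios in this ranking were for Gabrb1, a GABA receptor subunit (103 and 3 UMIs, 4.98-fold lower, 1.66 to 24.5), Ston2 (4.09-fold), Npas3, a transcription factor of glial lineages (3.97-fold), and Phldb1 (3.66-fold). Ccdc181, Med1, Arhgap21, Fjx1, Sord, Rdh10 and Eif4h followed, at 3.62 to 3.14-fold. With exclusion by share Ston2 and Ccdc181 turned to log2 ratios of 0.025 and 0.17, and without the Sspo-rich members and those with neutrophil genes as well, Arhgap21 and Sord stood at 0.12 and 0.082. Med1 stood at 0.088 with no UMI of the exclusion genes allowed. The other genes named here stayed lower over the settings tried. Their weakest log2 ratios were -1.50 for C3, -0.83 for Npas3, -0.40 for Fjx1 and -0.35 for Eif4h. For Rdh10, Phldb1 and Gabrb1 they were only -0.20, -0.16 and -0.10.

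**Figure D4:**
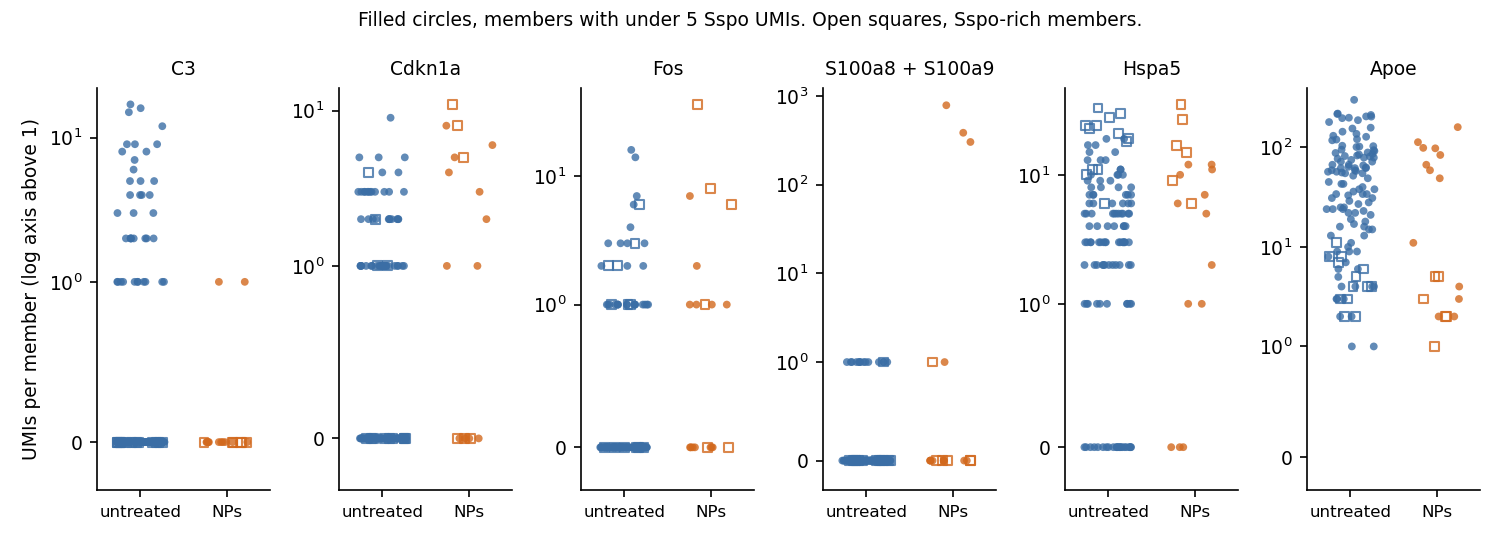
UMIs per member (y, log axis above 1, linear below) of C3, Cdkn1a, Fos, S100a8 with S100a9, Hspa5 and Apoe in the untreated and NPs brain libraries (x), with circles for members with under 5 Sspo UMIs and open squares for Sspo-rich members. C3 reaches 17 UMIs in untreated and 1 in NPs members, the calprotectin genes exceed 1 UMI in 3 NPs members, and Hspa5 and Apoe separate the squares from many of the circles.

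At the level of gene lists a member of a list was called at 1.5-fold, which 13.9% of the 6491 measured genes reached as higher and 23.2% as lower in the NPs members. In the 112 and 10 members left without the Sspo-rich members and those with neutrophil genes the same shares were 16.2% and 23.9% of 5674 genes. The median log2 ratio of all measured genes was -0.07, and -0.04 after the removals. Medians of the cilium lists lay between -0.37 (tubulin modification and basal body) and 0.26 (radial spoke). Of 18 inner dynein arm genes 2 were higher and 6 lower (median -0.06), of 20 central pair genes 1 and 5 (median -0.29), of 33 tubulin and doublet genes 0 and 5 (median -0.15), of 14 radial spoke genes 3 and 1 (median 0.26). After the removals these medians were 0.22, -0.13, 0.12 and 0.38. Single genes went either way, with the radial spoke gene Rsph9 at 249 and 395 CPM, Morn3 at 62.6 and 141, and the inner arm gene Dnah7b at 111 and 37.2. Their log2 ratios over the settings tried ranged from 0.33 to 0.72, from 0.57 to 1.79 and from -2.78 to -0.10.

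Over all members, stress and folding genes stood higher as lists. Among the immediate early and heat shock list 16 of 26 measured genes were called higher and 2 lower (median 0.69), with the highest levels for the chaperones Hsp90aa1 at 6964 and 6208 CPM and Hsp90ab1 at 4651 and 5568 CPM. The immediate early factor Jund was at 820 and 1340 CPM and the inducible chaperone Hspa1a at 21.6 and 186 CPM, 22 of its 25 NPs UMIs lying in Sspo-rich members. After the removals 7 of 21 were higher and 4 lower (median 0.40). Of 18 unfolded protein response genes 10 were higher and 0 lower (median 0.68), with Hspa5 at 823 and 1310 CPM and Herpud1 at 136 and 342 CPM, and after the removals 1 of 16 was higher and 0 lower (median 0.26). Within each kind of member the sum of this list was alike in the untreated and NPs libraries. It was 12591 and 13043 CPM in Sspo-rich members and 4676 and 4634 CPM in the others. Nuclear genes of oxidative phosphorylation kept their median, with 11 of 69 higher and 0 lower (0.30) and then 17 and 3 (0.32). Cox8a was at 754 and 1102 CPM and Sdhb, a subunit of complex II, at 57.2 and 156 CPM. MHC class I presentation genes gave 4 of 10 higher and 0 lower (median 0.48), with H2-D1 at 181 and 573 CPM, and 2 higher and 1 lower of 10 after the removals (median 0.20). The log2 ratio of H2-D1 in the members ranged from 0.16 to 2.93 over the settings tried. H2-D1 was also higher in the NPs library in microglia-rule barcodes, at 536 and 1312 CPM.

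Genes shared with astrocytes, surface transport and mitochondrially encoded genes stood lower. Of 19 surface transport genes 11 were lower and 2 higher (median -0.62), among them Aqp4 and the GABA transporter Slc6a11, at 122 and 7.44 CPM. After the removals 6 of 17 were lower and 2 higher (median -0.38). Over the settings tried, the log2 ratio of Slc6a11 ranged from -4.25 to -0.06 and that of Aqp4 from -1.46 to -0.16. Slc6a11 stands at 1467 and 1633 CPM in astrocyte-rule barcodes, and 11 of the 16 astrocyte markers, which it belongs to, were lower (median -0.94, and -0.37 after the removals). The part of astrocyte RNA in these differences was not tested. Of 28 radial glia and lineage genes 13 were lower and 6 higher (median -0.40), and 10 of 26 were lower and 1 higher after the removals (median -0.31). Of 9 mitochondrially encoded genes 7 were lower and 0 higher (median -0.76), with mt-Cytb at 13524 and 8002 CPM, and 3 of 9 were lower and 1 higher after the removals (median -0.49). This was not particular to the members. The list summed to 31425 and 17932 CPM in the members and 16026 and 11913 CPM in all other barcodes. It summed to 23585 and 18626 CPM in astrocyte-rule, 9687 and 8749 in microglia-rule and 42593 and 42541 in choroid-rule barcodes. The metallothionein Mt2 was at 1254 and 551 CPM and Mt1 at 5081 and 3059 CPM, with log2 ratios of -0.71 and -0.01 in the 112 and 10 members.

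**Figure D5:**
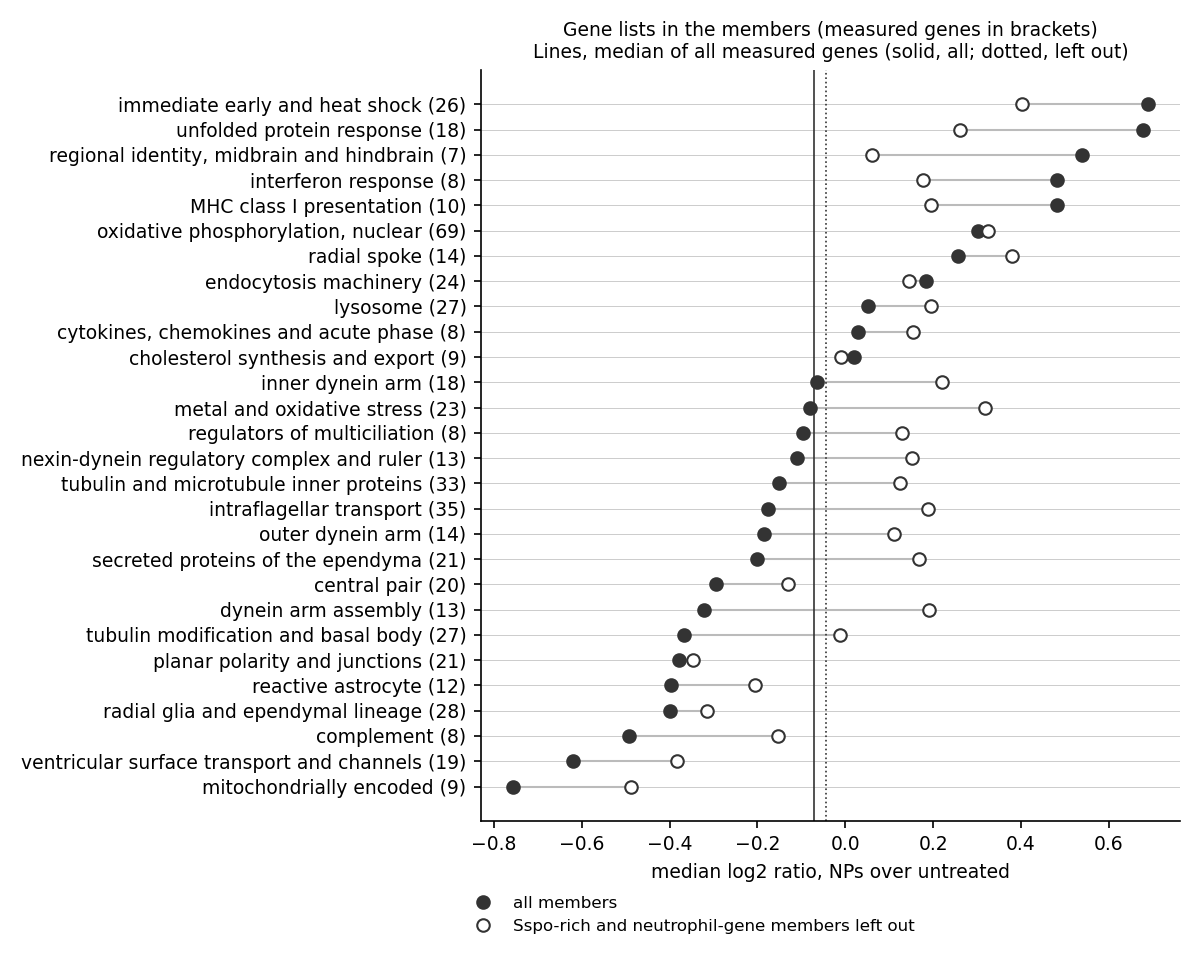
Median log2 ratio of NPs over untreated members (x) for each gene list with at least 7 measured genes (y, number measured in brackets), filled for all 125 and 19 members and open for the 112 and 10 left without Sspo-rich members and those with neutrophil genes; vertical lines mark the median of all measured genes. Unfolded protein response genes move from 0.68 to 0.26 and mitochondrially encoded genes from -0.76 to -0.49, while nuclear oxidative phosphorylation genes stay at 0.30 and 0.32.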

How the data were processed

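The deposited matrices give untransformed UMI counts per barcode over 55450 genes in 4 libraries, made by the authors with Cell Ranger 5.0.1 on GRCm38, per the submitters' processing notes, from 10x 3' libraries, per the labels. The labels describe enzymatic dissociation, red cell lysis and dead cell removal. The brain libraries held 70594935 (untreated) and 63889853 (NPs) UMIs in 11754 and 12226 barcodes; they shared 35 barcode sequences and no member barcode. UMI counts of members were summed per library and divided by their total (CPM). As 3' UMIs are counted once per molecule, no length scaling was applied. Shares have exact binomial (Clopper-Pearson), levels exact Poisson and ratios conditional binomial intervals at 95%; a count of 0 was replaced by 3 counts in ratios. Astrocyte-rule barcodes had at least 4 UMIs of Aldoc, Slc1a3, Gja1 and Aqp4, microglia-rule barcodes at least 4 of P2ry12 and Cx3cr1 and choroid-rule barcodes at least 4 of Folr1, Clic6 and Kcne2, with low limits on the genes of the other classes. Doublets were called with Scrublet in scanpy 1.11.5 and kept in the main values. Python 3.11.15, numpy 2.4.6, scipy 1.17.1, pandas 2.3.3 and matplotlib 3.10.9 were used, and the functions were tested on simulated data.

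Genes named are the 12 largest and 12 smallest ratios among genes of sufficient level (leaving out mt-, Rpl, Rps, Hba, Hbb, Rik and numbered Gm genes), up to 4 of the highest level and 2 of the largest difference per list, the 12 genes most above other barcodes with at least 300 UMIs, and the rule genes. S100b, Pltp, Rbp4, Car3 and Manf were chosen after their values were seen, as were the limits of 5 Sspo and 50 S100a8 and S100a9 UMIs. Members and gene lists were chosen with earlier results of these data known. Alternatives were 15 settings of filters, rule, depth and scaling, and 6 added after the data were seen.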

Additional observations from a re-analysis of the deposited data

Results flagged for a closer look

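Kept barcodes with at least 4 UMIs of the rule genes that the limits on other cells' genes left out of the members numbered 195 in the untreated and 32 in the NPs library, more than the members themselves. Their median depth was 14195 and 14618 UMIs, and their 32 ependymal markers stood at 7067 and 10894 CPM. They had 2 or more UMIs of P2ry12 and Cx3cr1 in 150 and 24 cases, 86 and 12 of them with only 2 or 3, and more than 2 UMIs of Folr1, Clic6 and Kcne2 in 133 and 22 cases.

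Kept barcodes outside the members with at least 5 Sspo UMIs numbered 19 in the untreated and 10 in the NPs library, so that 32 and 16 barcodes in all were Sspo-rich (0.274% and 0.131%). These data were in none of the comparisons of members.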

How the results depend on the processing

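The ratio of the members' shares (0.146) stayed between 0.0855 and 0.172 under 15 settings. The counts of 49 higher and 98 lower genes (33.3% of calls higher) were 26 and 20 with no UMI of the exclusion genes allowed (of 233 genes), 88 and 163 for means over cells, 18 and 24 for members thinned to 2000 UMIs (of 293), 122 and 188 at a minimum of 50 UMIs and 21 and 15 at 200, 24 and 24 with exclusion by share, and 16 and 32 with exclusion by share and without the Sspo-rich members and those with neutrophil genes. Fewer genes were tested in the settings with 233, 293 and 843 genes; otherwise the cause was not tested. Log2 ratios changed sign as follows. With no UMI of the exclusion genes, Spp2 was -0.65, Zfhx4 -2.10, Tst -0.16, Dpy19l3 -1.10 and Med1 0.088. Without Sspo-rich members, Zfhx4 was -2.39, Tst -1.01 and Dpy19l3 -2.41. Without those and the members with neutrophil genes, Fos was -0.60, Zfhx4 -1.96, Tst -0.58, Dpy19l3 -1.99 and Ifitm2 -1.17. With exclusion by share, Ston2 was 0.025, Ccdc181 0.17 and the median of forebrain identity genes -0.25. With both changes, Zfhx4 was -0.083, Dpy19l3 -0.068, Ston2 0.21, Ccdc181 0.33, Arhgap21 0.12, Sord 0.082 and the forebrain median -0.77. No paired analysis was possible because each group has 1 library. With 19 NPs members, genes under about 100 UMIs have ratios with wide intervals.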

Other observations

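Lysosomal and endocytosis genes differed little between the libraries by their medians. Lysosomal genes summed to 5180 and 5888 CPM in the members against 24794 and 27222 CPM in microglia-rule barcodes. Of 27 measured lysosomal genes 3 were higher and 3 lower in the NPs members (median log2 ratio 0.05), with Psap at 1030 and 1273 CPM. Of 24 endocytosis genes 4 were higher and 2 lower (median 0.18). The early endosome tether Eea1 was raised in the members, at 459 and 357 CPM against 77.0 and 87.8 CPM in astrocyte-rule barcodes. Of 21 planar polarity and junction genes 0 were higher and 7 lower (median -0.38), against 13.9% and 23.2% of all measured genes. Without the Sspo-rich members and those with neutrophil genes 2 were higher and 6 lower (median -0.35), against 16.2% and 23.9%. Over all members the polarity receptor Celsr1 stood at 119 and 44.7 CPM and the cortical linker Ezr at 669 and 700 CPM. The log2 ratio of Celsr1 ranged from -2.19 to -0.03 over the settings tried.

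Of 8 measured interferon response genes 2 were raised in the members, against 20.9% of all measured genes. In the NPs members 4 of the 8 were higher and 2 lower (median log2 ratio 0.48). Without the Sspo-rich members and those with neutrophil genes, 2 of 6 were higher and 1 lower (median 0.18). Ifitm3 was raised, at 477 and 305 CPM against 16.8 and 25.6 CPM in astrocyte-rule barcodes and 76.5 and 61.7 CPM in microglia-rule barcodes. It was nearly absent from the Sspo-rich members, with 2 UMIs in the untreated and 0 in the NPs library. Both libraries held Xist in the members, at 702 and 767 CPM, and 0 UMIs of 4 Y-linked genes.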
